A study of Mus musculus with 6 samples.

Results

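The 85 ribosomal protein genes described here were the protein-coding genes of GENCODE M1 (mouse build mm9) whose name begins with Rpl or Rps and a digit, or is Rplp0, Rplp1, Rplp2 or Rpsa. The Rps6k kinases and the -ps pseudogenes were left out. They made up 85 of 22380 protein-coding genes, with 51 of the large subunit and 34 of the small subunit by name. Of the 85, 77 were counted as core ribosomal proteins by the form of the name alone, Rps4y2 among them. The other 8 were paralogues or a binding partner (Rpl10l, Rpl22l1, Rpl36al, Rpl39l, Rpl3l, Rpl7l1, Rps19bp1 and Rps27l). The members lay on 19 chromosomes, 4 of them on the X chromosome, and their median length was 3243 bp against 15420.5 bp for all protein-coding genes.

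Ribosomal proteins join the ribosomal RNAs to form the small subunit, which reads the mRNA, and the large subunit, which joins the amino acids. Their genes are transcribed at high levels in growing cells and are classically described as having short promoters with a run of pyrimidines at the transcription start, which continues into the mRNA as the terminal oligopyrimidine tract through which mTOR controls their translation. H3K4me3 and H3K27ac are histone marks of active promoters, the latter also of enhancers, and Pax5 is the transcription factor that commits lymphocyte precursors to the B lineage.

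The study asked how chromatin and transcription factors relate to rearrangement of the immunoglobulin kappa locus. Chromatin immunoprecipitation and sequencing (ChIP-seq) was done in pre-B cells for H3K27ac, H3K4me3 and Pax5, each as 1 library with its own input. All 6 samples came from C57BL/6 mice of both sexes, 6 to 14 wk old, that lacked RAG (RAG-/-) and carried a rearranged IgM transgene (µ+), so that cells reached the pre-B stage through the transgene. The groups shared genotype, age and tissue, there was no wild-type or other contrasting group, and whether animals were pooled for a library was not given in the sources used here. With 1 library per list no value below has a replicate error, groups could not be tested against each other, and how deeply the libraries were sequenced is not known here.

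The lists held 69345 H3K27ac peaks (median width 428 bp), 15445 Pax5 peaks (965 bp) and 782636 H3K4me3 bins of 25 bp, which joined into 23237 regions (625 bp). The H3K27ac and Pax5 peaks carried a score, from 3.06 to 330.0 and from 87.9 to 3214, on scales that are not named and are not comparable between the lists. Of the B-lineage genes examined, Cd79a, Cd79b, Blnk and Ebf1 had all 3 lists within 1000 bp of a start, and Vpreb1 had H3K27ac and Pax5 without H3K4me3. The T-cell genes Cd3e and Cd4, the erythroid gene Gata1 and the genes Alb, Myod1 and Neurod1 of other tissues had none of the lists. The myeloid genes Csf1r and Itgam had H3K27ac (highest scores 11.4 and 8.16) and H3K4me3 but no Pax5. Whether other cells contributed to the ribosomal protein gene peaks was not tested.

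A gene was counted as having a list if a peak or region overlapped the 1000 bp on either side of any of its protein-coding transcript starts. Distances are given from a reference start, the median of those starts, and are positive in the direction of transcription. Of the 85 genes, 40 had 1 coding start and 71 had all coding starts within 500 bp.

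The sequences below show the starts on which the distances rest, as 100 bases of mm9 on the gene's strand, 80 before the reference start and 20 from the start on, with the start base counted as 0. Capitals mark the longest unbroken run of C and T that reaches within 20 bases of the start. Rpl14, Rpl10 and Rplp1 are shown because the run spans the start itself.
Rpl14 (chr9:120480552-120480651, plus strand): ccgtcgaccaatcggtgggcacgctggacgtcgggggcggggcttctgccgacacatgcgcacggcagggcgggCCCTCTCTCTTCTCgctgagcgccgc
Rpl10 (chrX:71516116-71516215, plus strand): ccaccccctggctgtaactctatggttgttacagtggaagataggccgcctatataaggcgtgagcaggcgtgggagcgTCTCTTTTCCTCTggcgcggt
Rplp1 (chr9:61762326-61762425, minus strand): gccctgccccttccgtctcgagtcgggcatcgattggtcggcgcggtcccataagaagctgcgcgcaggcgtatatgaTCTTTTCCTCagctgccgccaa
Rps19, Rps2, Rpl22 and Rpl27 are shown because they carried the 4 highest Pax5 scores among the 85 genes. Rps2 is a member with a short run near its reference start.
Rps19 (chr7:25669590-25669689, plus strand): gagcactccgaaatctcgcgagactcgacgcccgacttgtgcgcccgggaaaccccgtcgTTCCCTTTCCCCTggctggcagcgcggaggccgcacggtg
Rps2 (chr17:24856928-24857027, plus strand): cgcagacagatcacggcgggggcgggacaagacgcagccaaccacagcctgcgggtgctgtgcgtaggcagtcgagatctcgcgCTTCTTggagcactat
Rpl22 (chr4:151699882-151699981, plus strand): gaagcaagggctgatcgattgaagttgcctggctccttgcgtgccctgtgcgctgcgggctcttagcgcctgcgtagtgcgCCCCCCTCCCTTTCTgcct
Rpl27 (chr11:101303680-101303779, plus strand): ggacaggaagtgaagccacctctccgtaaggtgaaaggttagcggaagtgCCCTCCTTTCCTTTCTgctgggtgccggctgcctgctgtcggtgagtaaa
Rps6 and Rps4x are shown because they had H3K27ac and H3K4me3 but no Pax5 peak, and Rpl3l and Rpl10l because they had no list.
Rps6 (chr4:86503297-86503396, minus strand): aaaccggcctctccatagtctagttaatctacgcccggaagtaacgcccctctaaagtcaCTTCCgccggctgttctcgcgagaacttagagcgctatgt
Rps4x (chrX:99384714-99384813, minus strand): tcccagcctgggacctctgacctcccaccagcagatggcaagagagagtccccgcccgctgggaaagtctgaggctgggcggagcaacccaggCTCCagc
Rpl3l (chr17:24864694-24864793, plus strand): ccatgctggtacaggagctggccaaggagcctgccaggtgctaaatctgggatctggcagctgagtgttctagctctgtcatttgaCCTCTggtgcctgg
Rpl10l (chr12:67385369-67385468, minus strand): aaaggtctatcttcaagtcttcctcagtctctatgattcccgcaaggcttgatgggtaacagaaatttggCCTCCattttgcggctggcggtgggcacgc
In Rpl14 the run of 14 bases began at -6, in Rpl10 that of 13 bases at -1 and in Rplp1 that of 10 bases at -2. Rpl22 had 15 such bases from position 1, whereas in Rps19 (13 bases) and Rpl27 (16 bases) the run lay before the start. The longest run was 6 bases in Rps2, 5 in Rps6, Rpl3l and Rpl10l and 4 in Rps4x.

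Of all 85 promoters, 38 (44.7%) had a run of 8 or more C or T reaching within 20 bases of the start. The share was 20.2% for all protein-coding genes and 18.6% for those with H3K4me3. Most of the members' runs lay wholly before or after the start, as at Rpl27 and Rpl36. Runs of 10 or more were found in 21 members (24.7%) against 10.0% of all protein-coding genes, and the median longest run was 7 bases against 5. The longest, 17 bases, belonged to Rpl11, where it began at 13, and to Rpl32, where it began at -3 and covered the start. The share of promoters with a run of 8 or more was 15.8% for the 76 mitochondrial ribosomal protein genes, 29.9% for 67 translation factor genes and 12.8% for 47 proteasome genes, the comparison lists being taken by name. Among the members, 35 of 73 with a Pax5 peak and 3 of 12 without one had such a run.

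The 7 motifs searched in the 300 bp window from 250 bp before to 50 bp after the start, on both strands, are given for the members, for all protein-coding promoters and for those with H3K4me3. The ETS core CCGGAAG was present in 27 of 85 members (31.8%), in 11% of all protein-coding promoters and in 18.8% of those with H3K4me3, while 36.8% of the mitochondrial ribosomal protein genes had it. The GC box GGGCGG was present in 52.9% of members, 44.1% of all promoters and 65.4% of those with H3K4me3. The CCAAT box was present in 28.2%, 37.4% and 37.5% of the same sets, and the TATA box TATAAA in 10.6%, 13.4% and 6.57%. The E box CACGTG was present in 9.41%, 7.72% and 10.1%, and the YY1 core AAGATGGC in 7.06%, 3.49% and 5.02%. The letters AAG at the end of the ETS core also begin the YY1 core, so that matches to both can share bases.

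The Pax5 core GCGTGAC was present in 5 members (5.88%), against 2.58% of all promoters and 3.97% of those with H3K4me3. All 5 had a Pax5 peak, as had 73 of all 85 members (85.9%), and 68 members with a Pax5 peak did not hold these letters in the window. The 5 sites are shown with up to 10 flanking bases on the gene's strand, the core in capitals and read as GTCACGC where it lay on the opposite strand.
Rpl13 (chr8:125626213-125626239, plus strand): gggcgggttcGCGTGACgtcacttccc
Rpl19 (chr11:97887969-97887995, plus strand): gcgcgacttaGCGTGACttccggctac
Rpl4 (chr9:64021036-64021062, plus strand): tttaacacacGTCACGCaataatatta
Rps19 (chr7:25669420-25669440, plus strand): tccgGTCACGCccaaggaaac
Rps25 (chr9:44215649-44215675, plus strand): caggttggaaGTCACGCcccctatccc
The sites began at -27 in Rpl13, -45 in Rpl19, -148 in Rpl4, -246 in Rps19 and -138 in Rps25. A match is a description of letters, and which factor occupied it was not measured.

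**Figure D1:**
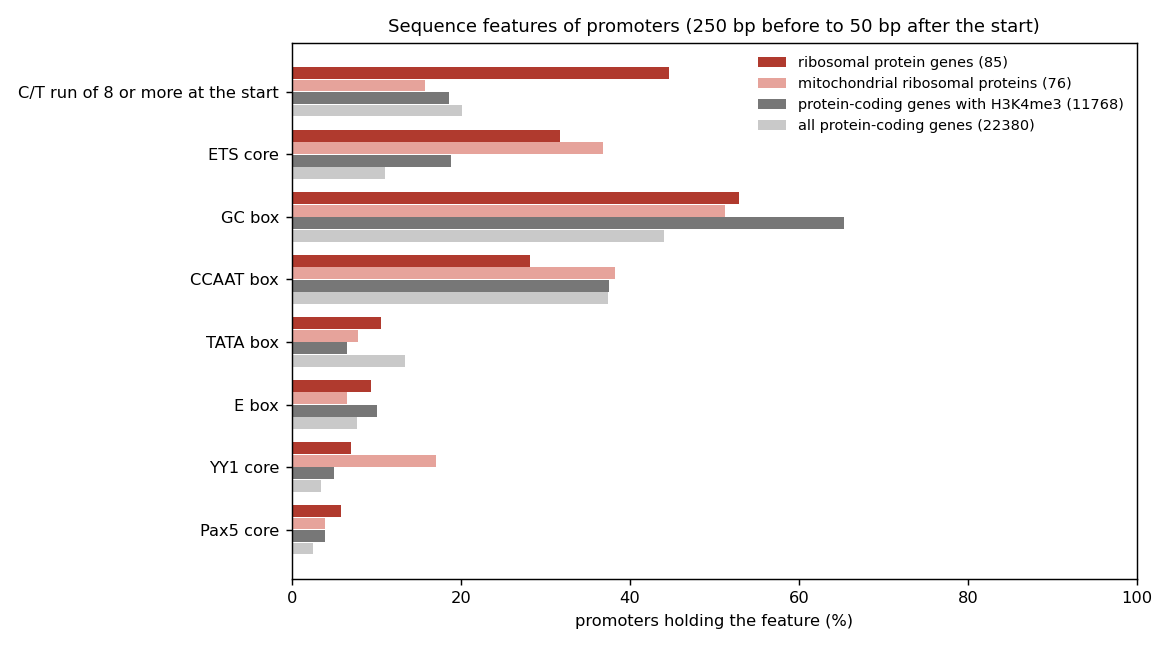
Share of promoters (percent, horizontal axis from 0 to 100) that held each sequence feature, in 4 sets of genes given by colour. A run of 8 or more C or T reaching within 20 bases of the start was held by 44.7% of ribosomal protein genes. The other 3 sets drawn had 15.8% to 20.2%.

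At the chromatin level the ribosomal protein genes were almost uniformly marked. H3K4me3 was listed at 82 of the 85 genes (96.5%), beside 52.6% of all protein-coding genes. H3K27ac was listed at 81 (95.3%), beside 48.3%. Pax5 was listed at 73 (85.9%), beside 37.4% of all protein-coding genes and 69.4% of those with H3K4me3. All 3 lists met at 73 genes (85.9%, beside 34.3%), so that every member with a Pax5 peak also had both histone marks. The same held for 7672 of the 8369 protein-coding genes with a Pax5 peak. The other combinations were both marks without Pax5 at 8 genes, H3K4me3 alone at 1 gene and no list at 3 genes.

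Other housekeeping lists are set beside the members here, and the differences were not tested. H3K27ac was listed at 98.7% of mitochondrial ribosomal protein genes, 92.5% of translation factor genes and 95.7% of proteasome genes, and H3K4me3 at 100%, 92.5% and 95.7%. Pax5 was listed at 76.3%, 71.6% and 70.2%. Among genes with both histone marks, Pax5 was listed at 73 of 81 ribosomal protein genes (90.1%), at 57 of 75 mitochondrial ribosomal protein genes (76%), at 48 of 61 translation factor genes (78.7%), at 33 of 45 proteasome genes (73.3%) and at 75.8% of all 10124 protein-coding genes with both.

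Of 22 further ribosome genes, which include the ubiquitin-like fusion Fau, the nucleolar proteins Npm1, Ncl and Fbl and subunits of RNA polymerase I, 22 had H3K27ac, 22 had H3K4me3 and 17 had Pax5. Genes with the members' names and -ps were rarely listed. Of 163 ribosomal protein pseudogenes taken by the name -ps, 5 had an H3K27ac peak (3.07%) and none had H3K4me3 or Pax5. Rpl30-ps6 and Rps26-ps1, which are among the 5, are annotated as protein-coding. Reads were kept at up to 3 best positions, and how far this lowered the count at such copies was not tested.

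**Figure D2:**
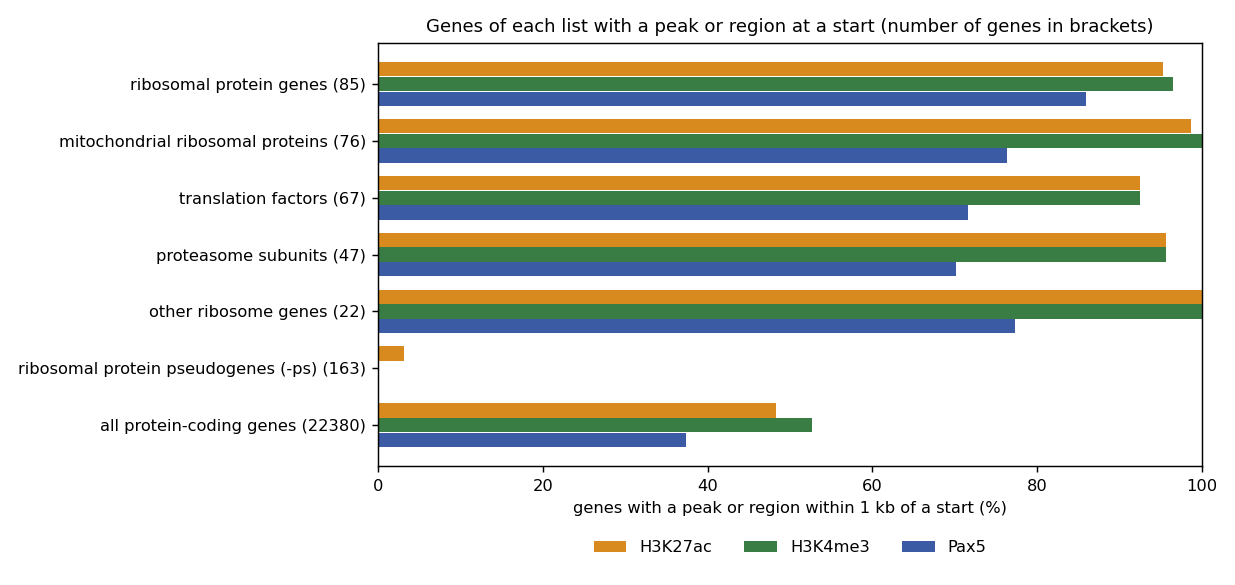
Percent of genes with an H3K27ac peak, an H3K4me3 region or a Pax5 peak within 1 kb of a start (horizontal axis, 1 bar per list), for ribosomal protein genes and 6 comparison sets. The ribosomal protein genes have bars of 95.3%, 96.5% and 85.9%, and the pseudogenes 3.07% for H3K27ac and none for the others.

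The large and small subunits were nearly alike in how often the histone marks were listed. H3K27ac was listed at 48 of 51 large-subunit genes and 33 of 34 small-subunit genes, and H3K4me3 at 48 and 34. Pax5 was listed at 42 of 51 (82.4%) and 31 of 34 (91.2%). The median of the highest H3K27ac score was 53.0 for the large subunit and 50.9 for the small, and that of the Pax5 score 242 and 276. Without replicates the 2 subunits cannot be said to differ.

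The members without a full set of lists were named in every case. Rpl10l, a testis-expressed retrogene copy of Rpl10, had its nearest H3K27ac peak 1110766 bp away. Rpl39l, the testis-enriched copy of Rpl39, had its nearest H3K27ac peak 135353 bp away. Rpl3l, the striated-muscle paralogue of Rpl3, lay 7766 bp from the start of Rps2, which had all 3 lists and the second-highest Pax5 score of the group. The nearest H3K27ac peak to Rpl3l began 1862 bp downstream of its start, outside the window, with a score of 5.26. These 3 tissue-restricted paralogues had no list, whereas 4 of the other 5 non-core genes (Rpl22l1, Rpl36al, Rps19bp1 and Rps27l) had all 3 lists, and Rpl7l1 had both marks. Rps4y2, on chromosome 6 and counted as core only by its name, had a single H3K4me3 region of 75 bp from 93 to 167 bp after its start. Its nearest H3K27ac peak was 8447 bp upstream.

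The 8 genes with both marks and no Pax5 peak were Rpl12, Rpl35a, Rpl36, Rpl37a, Rpl6, Rpl7l1, Rps4x and Rps6. Their H3K27ac scores reached 34.4, 45.9, 38.7, 64.2, 70.7, 61.3, 17.8 and 53.8 in that order, within the 10.6 to 162 of the genes with Pax5. Their lack of Pax5 did not change with the window, the count of members with Pax5 being 73 with windows of 500, 1000 and 2000 bp. The nearest Pax5 peak was 3148 bp away for Rpl36, 4932 bp for Rpl12, 5417 bp for Rpl35a and 9478 bp for Rpl7l1. It was 15360 bp away for Rpl6, 16619 bp for Rps6, 62378 bp for Rps4x and 127628 bp for Rpl37a. Rps6 is the small-subunit protein phosphorylated by the S6 kinases, and Rps4x is the X-linked gene of another small-subunit protein. Peaks below the calling threshold would not be in the list, so absence from it is not absence of binding.

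H3K27ac scores varied widely within the group. In a bulk sample a low score from fewer marked cells and from less signal per cell cannot be told apart. The highest was 162 at Rpl19, ranked 118 of the 69345 peaks. Rps27 followed with 154, Rpl32 with 150.2, Rps18 with 142 and Rps14 with 142. Rps14 encodes the small-subunit protein whose gene is deleted in a human myelodysplastic syndrome. Its peak of 142 lay from -1108 to -463 bp and covered the annotated 5′ end of the gene. The peak over its reference start scored 52.2. The lowest were 10.6 at Rps10, 12.3 at Rpl36a, 13.7 at Rpl38, 14.0 at Rps25 and 15.8 at Rpl10a.

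The median of the members was 52.6 against 32.1 for all protein-coding genes with a peak, and 55 of 81 members (67.9%) had a peak among the highest-scoring 10% of the list, against 44.9% of protein-coding genes with one. All 81 had a score above the median of the list, as had 91.7% of protein-coding genes with a peak. The 4 members on the X chromosome had a median of 22, with Rpl10 at 90.5, Rpl39 at 26.1, Rps4x at 17.8 and Rpl36a at 12.3, so 1 of the 4 was above the group's median. Mice of both sexes were used, and the number of X chromosomes in the library is not known.

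Pax5 scores were near those of other genes. Their median was 251 in members and 269 in all protein-coding genes with a peak, and 9 of 73 members (12.3%) were in the highest-scoring 10% of the list against 14.3%. The highest was 1606 at Rps19, ranked 149 of 15445. Rps19 encodes a small-subunit protein mutated in Diamond-Blackfan anaemia, and its start lay 12730 bp from that of Cd79a, a signalling chain of the B-cell receptor, a neighbour looked up after the score was seen. Rps2 had 1158, Rpl22 1070.2, Rpl27 1046, Rps24 877, Rpl17 805, Rpl24 724 and Rpl15 717. The Rps2 peak also covered starts of the non-coding Snhg9 and Snora78, 98 and 260 bp upstream on the opposite strand. Likewise the Rpl15 peak covered a start of Nkiras1, 107 bp upstream on the opposite strand. The Rpl24 peak of 724 lay from 7036 to 8626 bp, at another coding start, and the peak over its reference start scored 108.

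The lowest Pax5 scores were 89.4 at Rpl39, 89.6 at Rpl32, 90.7 at Rpl26, 92.7 at Rpl23, 95.2 at Rps16, 95.3 at Rpl5, 111 at Rpl29 and 116 at Rps7. The lowest of them were close to the list's minimum of 87.9. With the list limited to its higher-scoring 50%, 45 of the 85 members kept a Pax5 peak, beside 23.2% of all protein-coding genes, and all 81 kept H3K27ac, beside 44.3%.

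The H3K27ac and Pax5 scores had little relation in rank. Over the 73 genes with both, Spearman's rho between the highest H3K27ac score and the highest Pax5 score was -0.04. It was 0.14 between the H3K27ac score and the widest H3K4me3 region, and 0.12 between the Pax5 score and that region. These describe 73 genes within the same 3 libraries, and genes are not replicates. Rpl32, with a long pyrimidine run over its start, had the third-highest H3K27ac score and the second-lowest Pax5 score.

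**Figure D3:**
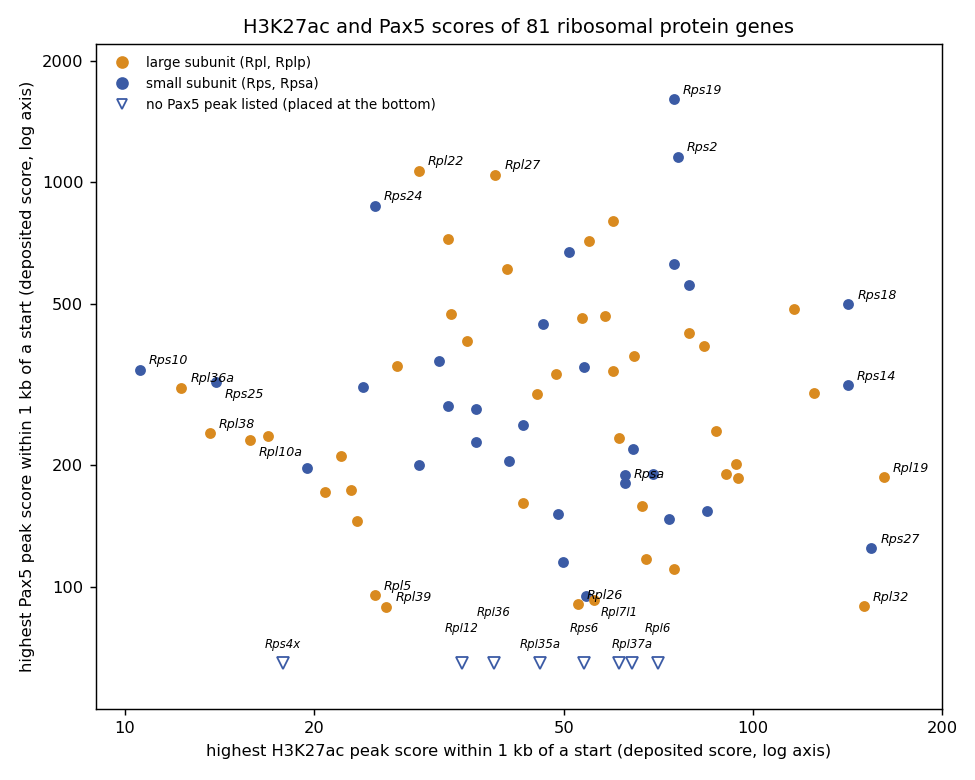
Highest Pax5 score (vertical, log axis) against highest H3K27ac score (horizontal, log axis) within 1 kb of a start, 1 point per gene, with large-subunit genes in orange and small-subunit genes in blue. Triangles at the bottom are the 8 genes without a Pax5 peak. The points show no slope, rho being -0.04 over 73 genes.

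The 3 lists had different shapes around the start. The median width of the peak nearest the start was 981 bp for H3K27ac against 629 bp in all protein-coding genes with a peak. It was 1512.5 bp against 1400 bp for H3K4me3 and 1140 bp against 1140 bp for Pax5. The median offset of the midpoint was 100.5 bp for H3K27ac, 150.5 bp for H3K4me3 and 12 bp for Pax5, against 55, 140 and 8.5 bp.

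H3K4me3 lay more downstream than upstream. Within the 1000 bp on each side, the median covered length was 558 bp upstream and 976 bp downstream, and 70 of 82 genes (85.4%) had more downstream, against 66.4% of protein-coding genes with the mark. For H3K27ac the medians were 603 and 786 bp, and 53 of 81 (65.4%) had more downstream against 52.9%. For Pax5 they were 512 and 584 bp, and 39 of 73 (53.4%) had more downstream against 49.3%.

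H3K27ac covered the start itself in most members. In 53 of 81 genes (65.4%) a peak covered the reference start, against 43.6% of protein-coding genes with both marks. In 21 (25.9%, against 35.1%) peaks lay on both sides but not over it, as at Rpl14, Rps19, Rps6 and Rpsa. These classes rest on the reference start, and at Rps19 the upstream peak covered the annotated 5′ end of the gene. In 7 genes (8.64%, against 12.8%) the mark was downstream only, and in no member was it upstream only (against 8.50%). Among comparison genes with H3K27ac, a peak covered the start in 66.7% of proteasome genes, 57.3% of mitochondrial ribosomal protein genes and 46.8% of translation factor genes. A covered start was thus not particular to the members. Position by position, 78.8% of the 85 genes were covered 250 bp before the start, 62.4% at it and 85.9% 500 bp after it. Protein-coding genes with H3K4me3 had 52.7%, 37.5% and 58.1% at the same positions. H3K4me3 covered 95.3% of members at the start against 86.2%, and Pax5 83.5% against 60.9%.

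**Figure D4:**
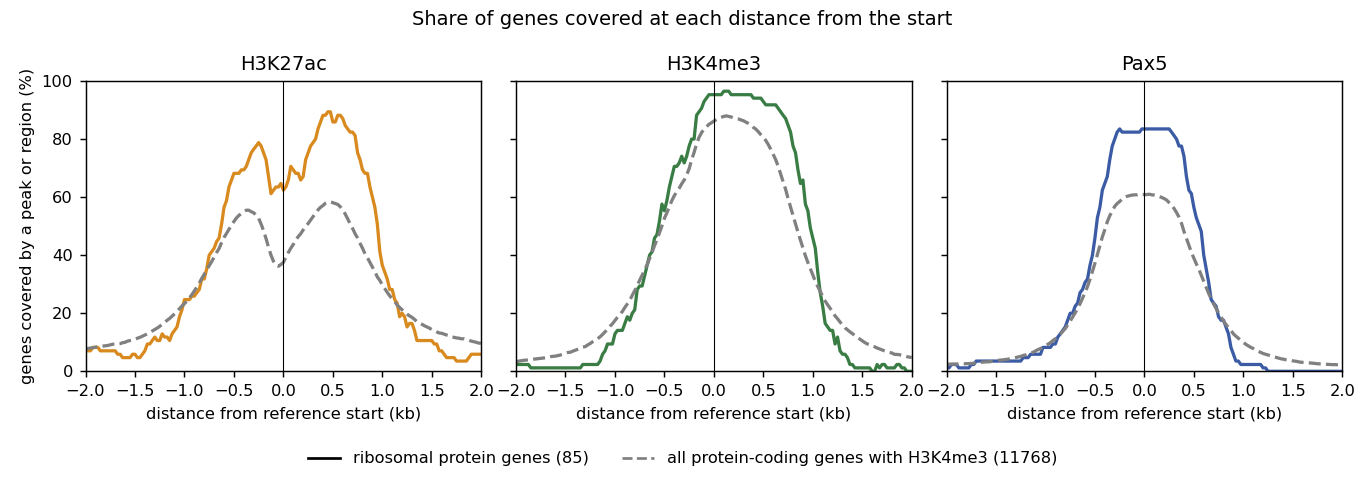
Percent of genes covered by H3K27ac, H3K4me3 or Pax5 (vertical) at each distance from the reference start (horizontal, kb, positive downstream). Solid lines are the 85 ribosomal protein genes and dashed grey lines the 11768 protein-coding genes with H3K4me3. The H3K27ac curve of the members is at 62.4% at the start, between 78.8% at 250 bp before it and 89.4% from 450 to 475 bp after it, whereas Pax5 stays at 83.5% at the start and 250 bp on either side.

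The 7 genes with H3K27ac only downstream were Rpl11, Rpl36, Rpl38, Rpl5, Rplp0, Rps24 and Rps29. Their peaks began 228, 198, 276, 434, 243, 339 and 60 bp after the start in that order. Rpl5 and Rpl11 encode partners in the large subunit that also bind and restrain Mdm2 when free of the ribosome. The Rpl5 peak ran from 434 to 1042 bp (score 25.0) and the Rpl11 peak from 228 to 973 bp (43.1). Rpl38, a large-subunit protein known for its part in translating Hox mRNAs, had the largest downstream offset of the group, 939.5 bp. All 7 had H3K4me3 over the start, and 6 of them, Rpl36 excepted, had Pax5 there.

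Other large H3K27ac offsets were at Rpl18 (-884 bp) and Rps19 (-555 bp) upstream and at Rpl5 (738 bp) downstream. The Rpl18 peak was the widest, 3713 bp from -2740 to 972 bp, and covered the start of Sphk2, which lies 155 bp upstream on the opposite strand.

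Of the H3K4me3 regions with their midpoint nearest the reference start, the widest were 3225 bp at Rpl7, 2200 bp at Rpl39, 2175 bp at Rps12, 2100 bp at Rpl18 and 2075 bp at both Rpl7a and Rpl36al. At Rpl7 the region ran from -2077 to 1147 bp and the Pax5 peak, the widest of the group at 2369 bp, from -1750 to 618 bp, and the start of Rdh10 lay 1112 bp upstream on the opposite strand. At Rps3, which sits near the mRNA entry of the small subunit, the midpoint of this region was at 581 bp, at Rpl38 at 508.5 bp and at Rps4x at 497.5 bp. The midpoint at Rpl7 was at -465 bp.

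At 8 genes the region with the nearest midpoint was not the widest. It was a piece of 25 bp at Rpl5, Rpl35 and Rps23, of 125 bp at Rpl30, of 275 bp at Rps29 and of 350 bp at Rps3a, each beside a region of 1550, 1700, 1225, 1650, 1075 and 1175 bp over the start. The midpoints of the small pieces at Rpl30 and Rps3a were at -397 and -319.5 bp, and those of the regions over the start at 515.5 and 518 bp, so that the direction turned with the choice of region. The regions over the start at Rpl35 and Rpl5 had midpoints at 570.5 and 524.5 bp. At Rpl13a and Rpl24 the wider region, of 2325 and 2275 bp, lay at another coding start. Taking the widest region, the median over 82 genes was 1575 bp, and the narrowest after the 75 bp of Rps4y2 were Rpl22l1 and Rpl36 with 925 bp. Small pieces are set by how bins were joined.

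Pax5 peaks had the midpoints nearest the start, by the medians above. They covered the reference start in 71 of 73 genes (97.3%), against 86.9% of protein-coding genes with a peak. The share was 100% for mitochondrial ribosomal protein genes, 95.8% for translation factor genes and 87.9% for proteasome genes with a Pax5 peak. The exceptions among the members were Rps14, whose peak ran from -1240 to -242 bp, and Rpl13a, whose peak lay around another coding start 7338.5 bp downstream. The Rps14 peak covered the annotated 5′ end of that gene. The coding starts of Rps14 spanned 1729 bp and those of Rpl13a 7680 bp. A start of Flt3l lay 54 bp upstream of the Rpl13a reference start on the same strand. H3K27ac scored 28.3 over that reference start and up to 61.3 near the downstream one. With the annotated 5′ end of the gene used in place of all coding starts, Rpl13a and Rps2 lost Pax5 and Rps2 lost H3K4me3. Other large offsets were at Rpl7 (-566 bp), Rpl35 (595 bp) and Rpl10a (353.5 bp). In 72 of 73 genes with both, a Pax5 peak and an H3K27ac peak overlapped, and in 73 of 73 a Pax5 peak and an H3K4me3 region did. These shares, 98.6% and 100%, were near the 98.3% and 99.2% of protein-coding genes with H3K4me3.

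**Figure D5:**
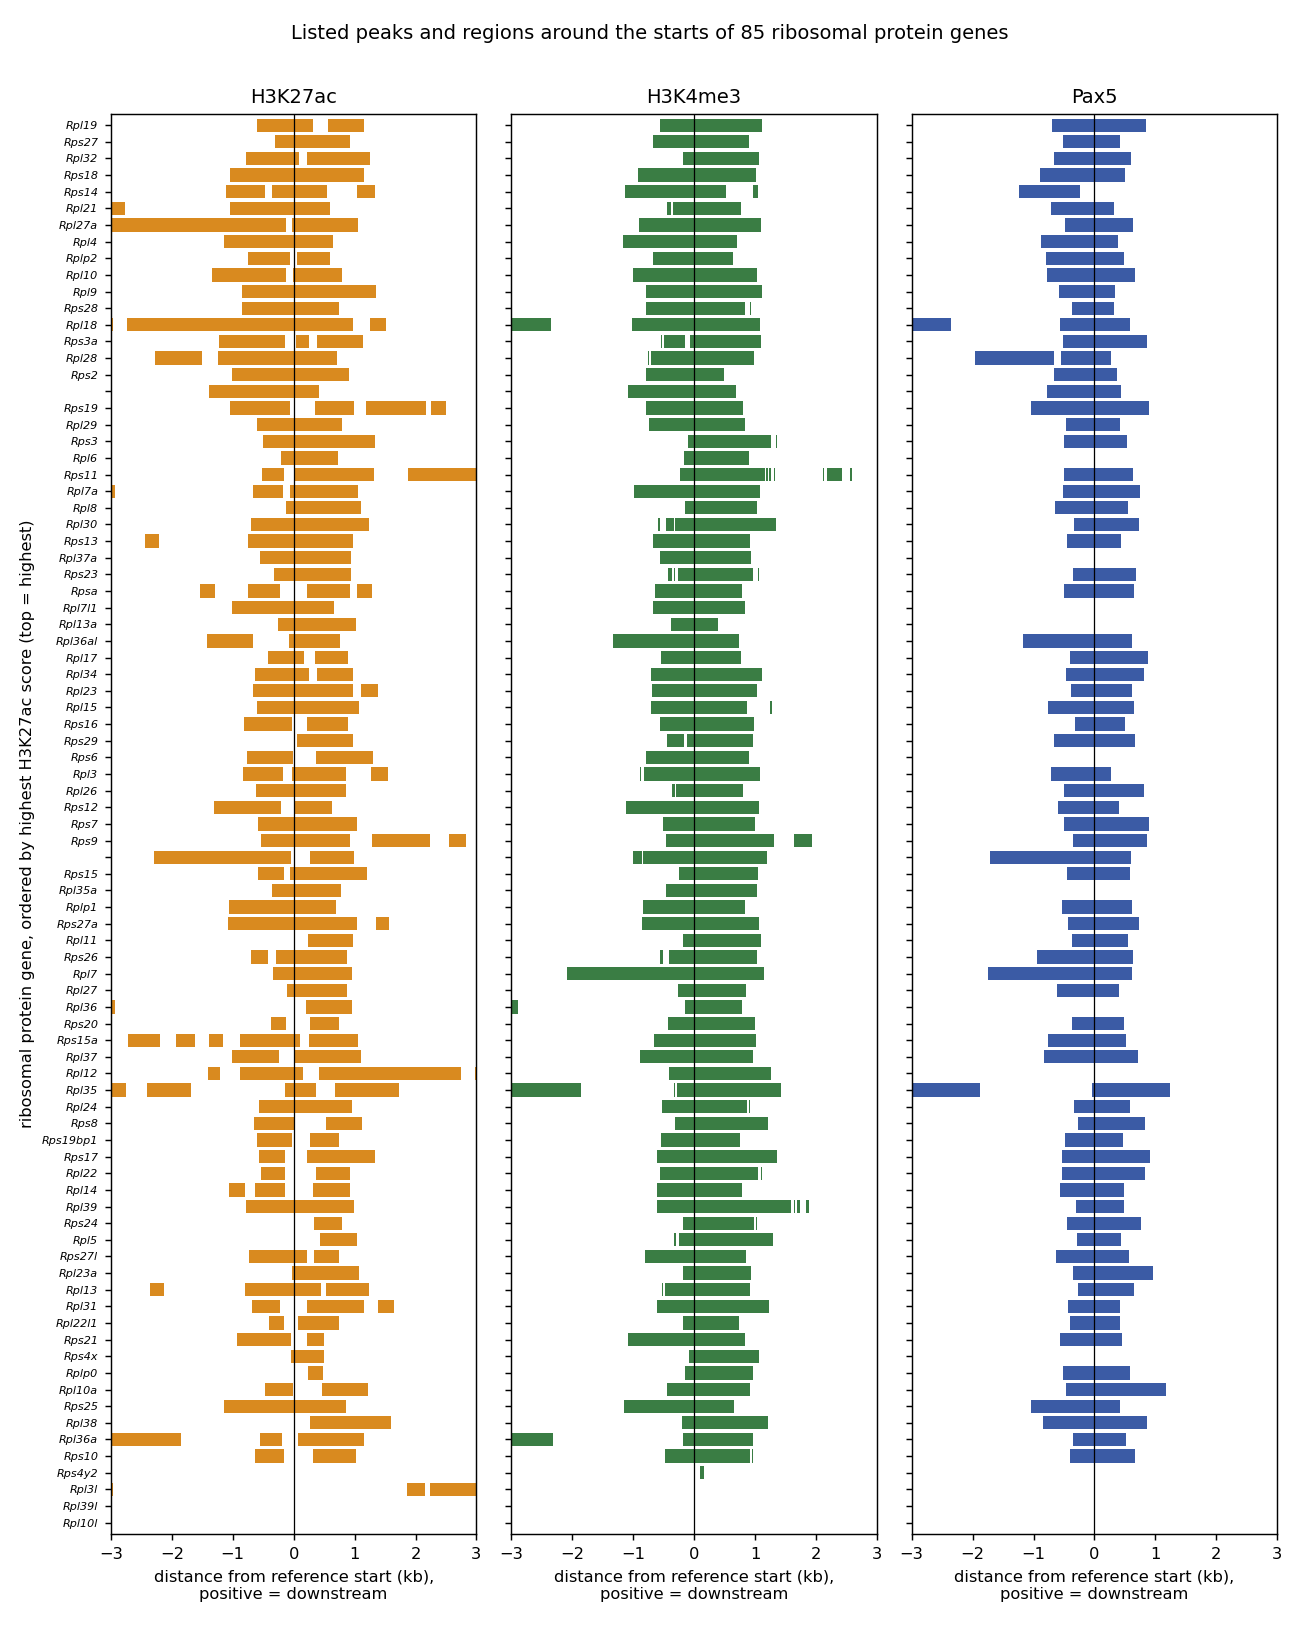
Extent of the H3K27ac peaks (orange), H3K4me3 regions (green) and Pax5 peaks (blue) from 3 kb before to 3 kb after the reference start (horizontal), 1 row per gene for all 85 genes with 2 rows left unlabelled, ordered from the highest H3K27ac score at the top. Bars cross the line at the start in 53 genes for H3K27ac, 81 for H3K4me3 and 71 for Pax5, and the 4 rows at the bottom are Rps4y2 with 75 bp of H3K4me3 and Rpl3l, Rpl39l and Rpl10l with nothing at the start.

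The P stalk, which recruits the translation GTPases, covered a wide range within a single complex. Rplp0, its base, had a narrow H3K27ac peak of 241 bp with a score of 16.9. Rplp1 had a peak of 1750 bp over the start with 45.4. Rplp2 had peaks on both sides of its reference start, 94.0 upstream, over the annotated 5′ end of the gene, and 7.70 downstream. Their Pax5 scores were 237, 300.2 and 201 in the same order, and their H3K4me3 regions 1125, 1675 and 1325 bp wide. Each of the 3 had all 3 lists.

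Among the other members chosen for their role, Rpsa, which doubles as a laminin receptor, had H3K27ac on both sides (62.6 upstream, 32.8 downstream) and Pax5 (181). Rps3 had an H3K27ac peak of 1838 bp (73.5) and Pax5 (147). Rps27a, made as a fusion with ubiquitin, had an H3K27ac peak of 2123 bp (43.1) and Pax5 (251). Rpl10, which completes the catalytic side of the large subunit, had H3K27ac of 90.5 and Pax5 of 190.5.

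The 3 paralogue pairs below had all 3 lists at both genes. Rps27 had 154 for H3K27ac and 125 for Pax5, whereas Rps27l, a p53 target, had 24.0 and 312. Both Rps27 peaks also covered a start of Rab13, 44 bp upstream on the opposite strand, and cannot be assigned to Rps27 alone. Rpl22, needed for T-cell development, had 29.4 and 1070.2, and its paralogue Rpl22l1 had 20.9 and 172. Rpl36a had 12.3 and 311, and Rpl36al 60 and 342.

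The 13 members with the start of another protein-coding gene on the opposite strand within 1000 bp had a median H3K27ac width of 1682 bp against 914.5 bp in the other 68 with a peak, and a median H3K4me3 width of 1875 bp against 1400 bp. Pax5 was listed at 11 of the 13 and 62 of the 72 others, with widths of 1253 and 1106.5 bp. The pairs included Rpl7a with Med22, Rpl15 with Nkiras1, Rpl4 with Zwilch and Rps18 with Vps52, and a peak between 2 starts cannot be assigned to either gene. A snoRNA gene lay inside 30 members, 58 snoRNA genes in all. Their median highest H3K27ac score was 62.0 against 45.4 for the members without one, and their median Pax5 score 210 against 311.

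Ribosomal protein genes have many processed copies in the genome, and reads were kept by the authors at up to 3 best positions. Of the 32-base words within 1000 bp of the start, the median share that occurred more than 3 times in mm9 was 4.95% for the members, 0.05% for mitochondrial ribosomal protein genes, 0% for translation factor genes and 1.1% for proteasome genes. The median was 1.6% before the start and 4.4% after it, and no gene exceeded 50%. The part of these repeated words in the peaks was not tested.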

How the data were processed

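H3K27ac, H3K4me3 and Pax5 were each measured by ChIP-seq in 1 library of pre-B cells with an input. The authors aligned reads to mm9 with Bowtie (version 0.12.9 in the submitters' processing notes, which also name MACS 1.4.2), kept reads with up to 3 best positions and removed duplicates. The deposited H3K27ac and Pax5 files give a position and a score for each peak, on scales the authors do not name, and the settings of peak calling for these lists are not given in the sources used here. The H3K4me3 file gives positions of 25 bp bins without a score, and bins that touch were joined. The 3 inputs are not analysed here.

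Groups followed the sample titles. Positions were compared with GENCODE M1 and NCBIM37, the same build as mm9, and no peak ended beyond a chromosome. Any overlap with the 1000 bp on either side of a protein-coding transcript start counted. The peak with its midpoint nearest the reference start gave width and offset, and the highest score within the window gave the score. Motifs and runs were read from NCBIM37. The genes named were the members without a histone mark, the 8 highest and 8 lowest Pax5 scores, the 5 highest and lowest H3K27ac scores, the 5 widest and narrowest H3K4me3 regions, the 3 largest offsets in each direction and 18 members chosen for their role. Other members were named where a count was small or a pair or sequence was shown, after their values were seen. Some genes and a sequence that the rules would name are not reported here. The members, lists and rules were chosen with earlier results of these data known. With 1 library per list, values are counts and medians beside those of all protein-coding genes, and no test was made. The alternatives were other windows (500 and 2000 bp), the midpoint in the window, the 5′ end of the gene, the widest peak, the higher-scoring 50% of a list, bins joined across 100 bp, and core members alone. The overlap code was tested on simulated data and recovered 200 of 200 planted peaks. Scripts ran under Python 3.11.15 with numpy 2.4.6 for arrays, scipy 1.17.1 for rank correlations and matplotlib 3.10.9 for plots.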

Additional observations from a re-analysis of the deposited data

How the results depend on the processing

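Of the 49 alternative values for the members' counts, widths and offsets, 43 stayed within 1.5 times the reported value. For the counts this was partly set in advance. Counts of 73 to 82 among 85 members could not rise by 1.5 times. A wider window could only add members, and 77 of the 85 are core members. With the higher-scoring 50% of the lists, the members with Pax5 and the members with all 3 lists were 45 in place of 73, by construction of a shorter list, and the median Pax5 offset was -5.5 bp in place of 12 bp. That offset was 70.5 bp from the 5′ end of the gene and 33 bp in core members alone, and the cause was not tested. The median H3K27ac offset was 231.5 bp with the widest peak in place of 100.5 bp with the nearest. No paired analysis was possible because there is a single library behind every list, and no replicate could be left out.

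The limits are those of peak lists. Presence depends on a calling threshold and a depth that are unknown, absence from a list does not show absence of the mark, and scores cannot be compared between lists. How the H3K4me3 bins were chosen was not given in the sources used here, so that region widths rest on an unknown cut. Starts within 1000 bp of each other share peaks.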

Other observations

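Promoters of the mitochondrial ribosomal proteins, which serve the organelle's own ribosome, held the YY1 core AAGATGGC in 17.1% of 76 genes, against 7.06% of the 85 cytosolic ribosomal protein genes and 3.49% of all protein-coding genes. Their highest H3K27ac score had a median of 35.1, against 52.6, and their Pax5 score a median of 198, against 251. Translation factor genes had the widest H3K4me3 regions of the lists compared, with a median of 1775 bp, and the GC box GGGCGG in 79.1% of promoters. The differences were not tested.

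The base at the reference start was C in 20% of the ribosomal protein genes and in 17.1% of protein-coding genes with H3K4me3. Annotated starts in GENCODE M1 can lie some bases from the start in use, which these files do not measure. Among the 163 pseudogenes, the 5 with an H3K27ac peak, among them Rpl21-ps8, Rpl30-ps6, Rpl35a-ps3 and Rps26-ps1, had a median highest score of 12.3.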
